A study of Mus musculus with 6 samples.

Results

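Angpt1, Angpt2, Tek, Tie1 and Ptprb are the genes of the angiopoietin and Tie receptor system, and they were taken by symbol from the gene list of the 6 single-cell count matrices, where all 5 were found among 32286 features. The libraries came from mouse brain microvessels captured with PECAM1 antibody on magnetic beads and dissociated to single cells, with 3 libraries from Cldn5 iECKO mice and 3 from control mice. The iECKO mice were C57Bl6 with Cdh5-creERT2+, Cldn5 fl/fl and R26 YFP/YFP, and the controls were C57Bl6 with Cldn5 fl/fl and R26 YFP/YFP and no Cre allele listed. Mice of both groups received 100 µl of tamoxifen at 20 mg/ml by gavage on 3 days at about 3 months of age, so tamoxifen and the floxed alleles were shared by all libraries. CreERT2 is a recombinase that acts after tamoxifen, and the Cdh5 promoter drives it in endothelial cells. The series' title names the deletion of claudin-5, a tight junction protein of the blood-brain barrier, as mosaic, so iECKO libraries hold cells with and without it. Nothing in the labels tells if a library came from 1 mouse or from pooled mice, and p-values therefore measure only the spread between libraries, which may be technical.

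Angiopoietin-1, made mainly by perivascular cells, is an agonist of the receptor tyrosine kinase Tie2, which Tek encodes, and its signal keeps vessels quiescent. Angiopoietin-2 is made by endothelial cells during sprouting and inflammation and acts on Tie2 as a weak or context-dependent agonist that can displace angiopoietin-1. Tie1 is an orphan receptor that pairs with Tie2 and tunes its signal, and Ptprb encodes VE-PTP, a receptor phosphatase that removes phosphate from Tie2 and from VE-cadherin complexes. In brain, this system is known for its part in vessel stability and barrier tightness.

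The receptor genes lie on the same chromosome in GRCm38 (GENCODE vM21 annotation). Tek (ENSMUSG00000006386) spans chr4:94739289-94874976 on the plus strand with 23 exons in its first listed transcript, and Tie1 (ENSMUSG00000033191) spans chr4:118471191-118490061 on the minus strand with 23 exons. Angpt1 (ENSMUSG00000022309) spans chr15:42424723-42676977 on the minus strand with 9 exons, and the antisense gene Gm17473 overlaps it. Angpt2 (ENSMUSG00000031465) spans chr8:18690263-18741562 on the minus strand with 9 exons and lies within Mcph1, which runs on the plus strand. Ptprb (ENSMUSG00000020154) spans chr10:116275523-116389535 on the plus strand with 32 exons. Strand-aware counting is not given in the sources used here, so reads of Angpt1 and Gm17473, and of Angpt2 and Mcph1, are uncertain to that extent.

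The promoters of the receptor genes are shown because Tek and Tie1 share their endothelial pattern in these data. They cover 250 bases before to 50 bases after the RefSeq start (GRCm38.p6), and 2 of the 5 genes had an entry. Tek lies at chr4:94739039-94739338 on the plus strand and Tie1 at chr4:118489800-118490099 on the minus strand, each written 5′ to 3′. Capitals mark GGAA, the core that ETS family factors bind, and TTCC, its reverse complement.
Tek: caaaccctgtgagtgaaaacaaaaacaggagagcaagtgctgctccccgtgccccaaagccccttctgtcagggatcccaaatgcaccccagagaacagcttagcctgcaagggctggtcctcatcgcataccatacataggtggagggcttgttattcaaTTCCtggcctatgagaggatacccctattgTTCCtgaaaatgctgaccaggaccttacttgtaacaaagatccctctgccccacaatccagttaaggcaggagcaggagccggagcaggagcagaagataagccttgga
Tie1: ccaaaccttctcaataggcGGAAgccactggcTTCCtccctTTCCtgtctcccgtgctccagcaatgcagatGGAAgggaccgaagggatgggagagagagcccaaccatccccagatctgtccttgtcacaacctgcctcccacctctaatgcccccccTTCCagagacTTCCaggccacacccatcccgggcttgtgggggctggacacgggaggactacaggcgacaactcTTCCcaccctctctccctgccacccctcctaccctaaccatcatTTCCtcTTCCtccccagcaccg
The Tek window held 2 matches, both on the minus strand of the gene, and 84.6% of 32851 promoters of the same length held at least as many. The Tie1 window held 9 matches, 2 on the plus and 7 on the minus strand, a count that 1.59% of promoters reached. The 5′ end of Tie1 in GENCODE, 118490061, lies inside this window, so most of the window falls within the annotated gene. A match to such short letters is a description, and 96.0% of all promoters held at least 1.

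The libraries held 2714 to 7420 barcodes in iECKO and 4049 to 6684 in controls, with 15727366 to 49350802 and 29721428 to 31638780 unique molecular identifiers (UMIs, 1 per captured RNA molecule). After filters on depth and mitochondrial share and removal of the top doublet scores, clusters were named from marker lists that left out Cldn5 and the 5 genes. Endothelial cells numbered 4697, 1896 and 3018 in iECKO libraries 1 to 3, against 4434, 4854 and 3117 in control libraries 1 to 3, and all 12 endothelial markers had UMIs in each. The names arterial, capillary, venous, pericyte and smooth muscle stand for clusters like those types by their markers. Cldn5, the deleted gene, had 2692, 2195 and 3113 counts per 1000000 UMIs in iECKO endothelial cells, against 4565, 4006 and 5381 in control ones, with no overlap. The labels do not say whether the counted 3′ end of Cldn5 lies in the deleted part, and the YFP feature had 0 UMIs in every library. Library iECKO 1 stood apart: 7.54% of its endothelial barcodes carried markers of another cell type as well and were removed, against 0.308% to 0.919% in the others. A subcluster led by Apln made up 46.5%, 19.1% and 3.88% of endothelial cells in iECKO libraries 1 to 3, against 0.496%, 0.433% and 0.385% in controls. It was counted as capillary since 9 of 9 capillary, 0 of 12 arterial and 4 of 11 venous markers were detected in it. Only 1 capillary marker was raised there, as was 1 venous marker. The 9 capillary markers were also detected in the Gkn3-led arterial, the venous and the unassigned Ndnf-led subclusters, so their detection alone does not mark capillary cells. The libraries numbered 2 in both groups held most cells of a Tsix-led capillary subcluster, 493 of its cells in iECKO 2 and 2077 in control 2. The others held 58 and 35 in iECKO 1 and 3, and 94 and 24 in control 1 and 3. Xist stood next to Tsix among its leading genes, and what sets the libraries numbered 2 apart was not tested. Pairs of libraries shared at most 16 barcodes.

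Angpt1, the Tie2 agonist, was a mural cell transcript in these libraries. Levels are given as counts per 1000000 (CPM), the UMIs of a gene over all UMIs summed from the cells of a class in a library, and libraries are given in the order 1 to 3. In pericytes Angpt1 had 47.2, 61.6 and 42.0 CPM in iECKO, against 55.6, 49.5 and 50.6 in control, from 5 to 12 UMIs per library. In smooth muscle cells it had 49.0, 80.7 and 80.1 in iECKO, against 61.4, 78.7 and 65.2 in control. The groups overlapped in both classes. The genotype difference in smooth muscle cells missed the threshold of edgeR's quasi-likelihood F test (log2 difference -0.090 ± 0.25, SE, Benjamini-Hochberg adjusted p = 0.998), and the sign of that small value turned under some alternatives. No gene of the system passed the filter on low counts in the genotype fit of pericytes, which numbered 38 to 79 per library. Before that, 116, 29 and 63 pericyte barcodes in iECKO, against 37, 26 and 46 in control, were removed for markers of another cell type. Between the mural classes of the control libraries, Angpt1 was -0.78 ± 0.34 in pericytes relative to smooth muscle cells (adjusted p = 0.059, edgeR), and was not called.

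Within the endothelium Angpt1 was near the detection limit except in arterial cells. Capillary cells had 0.421, 0.390 and 0.173 CPM in iECKO, against 0.635, 0.282 and 0.247 in control, which is 2 to 7 UMIs per library over 1366 to 3606 cells. Arterial cells had 3.44, 4.32 and 2.61 in iECKO, against 5.68, 11.0 and 5.30 in control. All 3 iECKO libraries lay below all 3 controls, with means of 3.46 ± 0.857 in iECKO and 7.31 ± 3.16 in control (SD, n = 3 each). The share of all genes that separate in this way is not given. In control libraries arterial cells exceeded capillary cells by 4.20 ± 0.47 on the log2 scale (edgeR, library as a block, adjusted p = 2.08e-06), while 24.1% of the 11546 genes tested were called in that comparison. Venous cells, with 0.497, 3.45 and 2.09 in iECKO, against 2.16, 0.601 and 0.592 in control, did not pass the test against capillary cells (1.18 ± 0.73 in control, adjusted p = 0.216). The genotype difference in arterial cells was -1.19 ± 0.43 (adjusted p = 0.837, edgeR; -1.01 ± 0.33 and adjusted p = 0.134 with the replicate number as a block), so it was not called.

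Arterial Angpt1 was highest per UMI in the smaller of the arterial subclusters. The arterial subcluster led by Fbln5, an elastic fibre gene of larger arteries, had 12.9, 16.9 and 20.0 CPM in iECKO (11, 4 and 8 of the 22, 6 and 12 arterial UMIs), against 34.3, 33.5 and 47.5 in control (9, 30 and 19 of the 20, 34 and 24 arterial UMIs). Each iECKO library lay below each control. The larger arterial subcluster, led by Gkn3, had 1.99, 1.74 and 0.953 in iECKO, against 3.38, 1.81 and 1.21 in control, and the groups overlapped. Smooth muscle markers moved through the same sums: 8 to 10 of 10 had UMIs in arterial cells, summing to 92.0 to 137 CPM in iECKO and 103 to 171 in control, and pericyte markers summed to 97.3 to 123 CPM in iECKO and 52.6 to 88.9 in control. Per 1000 smooth muscle marker UMIs, arterial cells held 25.1, 35.9 and 28.4 Angpt1 UMIs in iECKO, against 55.1, 64.2 and 51.3 in control. In smooth muscle cells that ratio was 0.825, 1.95 and 1.34 in iECKO, against 0.974, 1.74 and 1.06 in control. The arterial ratio lay above that of smooth muscle cells in every library, on 6 to 34 arterial Angpt1 UMIs. The part of mural cell RNA in the arterial values was not tested.

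**Figure D1:**
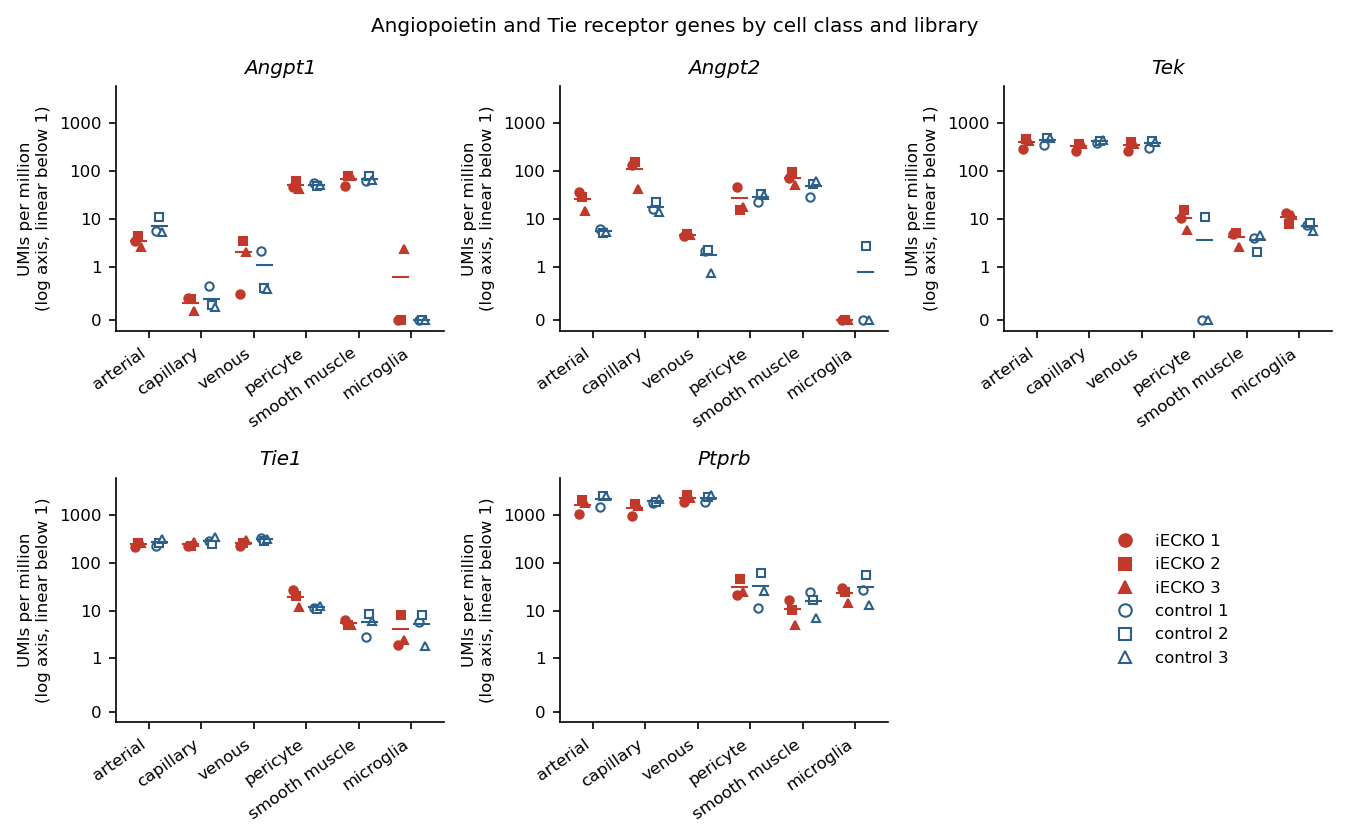
Level of each gene (CPM, log axis that is linear below 1) in 6 cell classes, 1 point per library, with iECKO libraries filled and left of the open control libraries and lines at the group means. Angpt1 stands near 50 to 80 in mural cells, Tek, Tie1 and Ptprb stand at 212 or above in every endothelial zone, and Angpt2 separates the groups in arterial, capillary and venous cells.

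The iECKO and control libraries did not overlap for Angpt2, the context-dependent ligand, in the sum over all endothelial cells. The share of all genes that separate in this way is not given here. Angpt2 had 83.6, 101 and 25.8 CPM in iECKO (2488, 1258 and 638 UMIs), against 11.2, 17.5 and 7.68 in control (263, 442 and 177 UMIs). The lowest iECKO library, number 3, lay above the highest control, number 2. Markers of some other cell types separated the same endothelial sums. Astrocyte markers, 7 or 8 of 8 with UMIs, summed to 103 to 179 CPM in iECKO and 70.4 to 81.8 in control. Pericyte markers, 11 of 11, summed to 74.7 to 111 in iECKO and 42.9 to 64.5 in control, and neuron markers to 6.76 to 9.17 in iECKO and 5.89 to 6.62 in control. The smooth muscle, microglia and erythrocyte lists overlapped between the groups. The median mitochondrial share of kept cells was 4.04% to 4.58% in iECKO libraries and 3.28% to 3.62% in control ones, and the part of these measures in the Angpt2 difference was not tested. The means were 70.3 ± 39.5 in iECKO and 12.1 ± 4.97 in control (SD, n = 3 each), a 5.80-fold difference. In edgeR the log2 difference was 2.55 ± 0.65 with an adjusted p = 0.393, and 0 of the 5 genes were called, against 0% of the 13267 genes tested (964 of these had an unadjusted p under 0.05, as did Angpt2, and DESeq2 called 174, 1.31%, Angpt2 among them at adjusted p = 0.0379). The replicate numbers were also taken as pairs of libraries, and with the number as a block Angpt2 passed (2.42 ± 0.24, adjusted p = 0.0343), as did 1.55% of genes. It also passed without library iECKO 3, at 2.97 and an adjusted p = 0.0172, and with the block it did not pass without library iECKO 2 (adjusted p = 0.128) or control 2 (adjusted p = 0.204).

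Capillary cells carried the highest Angpt2 of the endothelial zones. They had 132, 156 and 42.5 CPM in iECKO, against 16.4, 23.0 and 14.1 in control. The groups did not overlap, and the means were 110.2 ± 59.8 in iECKO and 17.8 ± 4.59 in control (SD, n = 3 each). In the same capillary sums astrocyte markers, 6 to 8 of 8 with UMIs in iECKO and 5 to 8 in control, summed to 126 to 213 CPM in iECKO and 74.4 to 93.0 in control, with Aqp4 at 0 in iECKO 2 and in control 1 and 3. Pericyte markers, 10 or 11 of 11 with UMIs, summed to 74.5 to 124 CPM in iECKO and 45.7 to 70.4 in control, and the part of either list was not tested. The log2 difference was 2.66 ± 0.61 (edgeR, adjusted p = 0.207, 0.217% of genes called), 2.53 ± 0.32 with the replicate block (adjusted p = 0.0383, 4.94% of genes called) and 2.67 in DESeq2 (adjusted p = 0.00471, 2.78% of genes called). Without library iECKO 3 it was called (3.08, adjusted p = 0.0016), and with the block it was not called without library 1 or 2 of either group (adjusted p = 0.162 to 0.213). The subclusters behind this class differed by group: the Apln-led one held 2182 of 3272 capillary cells in iECKO 1, against 22 of 3049 in control 1.

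Arterial cells had 35.8, 28.8 and 14.8 Angpt2 CPM in iECKO, against 6.25, 5.16 and 5.30 in control, with no overlap. Astrocyte markers, 3 to 8 of 8 with UMIs in iECKO and 4 to 6 in control, summed to 106 to 194 CPM in iECKO arterial cells and 58.0 to 98.3 in control ones, also with no overlap. Pericyte markers, 8 to 11 of 11 with UMIs in iECKO and 9 to 11 in control, summed to 97.3 to 123 CPM in iECKO and 52.6 to 88.9 in control, and the part of either list was not tested. The log2 difference was 2.23 ± 0.38, and edgeR called 0 of the 5 genes (adjusted p = 0.0877 for Angpt2, 0.0276% of genes called). At an unadjusted p under 0.05 were 2 of the 5 genes, and the share of all genes there is not given. For Angpt2 the replicate block gave 2.12 ± 0.23 (adjusted p = 1.26e-05, 2.05% of genes called), and DESeq2 an adjusted p = 5.88e-05 (0.212% of genes called). This call held with the block whichever library was left out, and without the block it appeared when iECKO 3 was left out (adjusted p = 0.00524). The arterial subclusters differed in this: the Gkn3-led one had 32.9, 34.8 and 16.0 in iECKO, against 6.14, 4.53 and 5.57 in control, while the Fbln5-led one had 55.0, 0 and 2.51 in iECKO (47, 0 and 1 UMIs, where 0 allows up to 12.6 CPM), against 7.61, 6.69 and 2.50 in control (2, 6 and 1 UMIs).

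Venous cells had the lowest Angpt2 of the zones, at 4.47, 4.83 and 4.60 CPM in iECKO (18, 14 and 11 UMIs), against 2.16, 2.25 and 0.887 in control (5, 15 and 3 UMIs). The groups did not overlap, and the difference of 1.3 ± 0.44 was not called (edgeR, adjusted p = 1.00, 0% of genes called, 388 at an unadjusted p under 0.05; replicate block 1.32 ± 0.42, adjusted p = 0.186, 0.392% of genes called; DESeq2 called 12 genes, 0.115%, and none of the system). The Lrg1-led venous subcluster held 134 of the 249 venous cells of iECKO 1 and at most 11 in any other library. In venous sums astrocyte markers, 5 or 6 of 8 with UMIs in iECKO and 4 to 6 in control, were at 48.5 to 63.8 CPM in iECKO and 38.9 to 53.0 in control, and pericyte markers, 8 to 11 of 11 with UMIs in iECKO and 7 to 11 in control, at 55.6 to 106 in iECKO and 33.4 to 55.7 in control. Both overlapped, and their part was not tested. Among control libraries, arterial cells had less Angpt2 than capillary cells (log2 difference -1.64 ± 0.20, adjusted p = 5.37e-06) and venous cells had still lower values against capillary cells (-3.34 ± 0.25, adjusted p = 8.37e-09, edgeR with library as a block, 37.3% of genes called). The test of whether the genotype difference itself differs between zones gave -0.34 ± 0.32 for arterial (adjusted p = 0.856, 0.134% of genes called) and -1.27 ± 0.52 for venous against capillary cells (adjusted p = 0.335, 0.689% of genes called). None of the 5 genes was called in either, and DESeq2 called none (0.235% of genes called for arterial, 1.1% for venous). In the venous term 2 of the 5 had an unadjusted p under 0.05, and the share of all genes there is not given. The venous Angpt2 term passed only without library iECKO 3 (adjusted p = 0.0445) among the alternatives run.

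The Apln-led subcluster, named by the gene for the peptide apelin, held much of the endothelial Angpt2. It supplied 85.4%, 75.1% and 33.5% of endothelial Angpt2 UMIs in iECKO libraries 1 to 3, against 18.6%, 17.0% and 14.1% in controls. Inside it the order of the groups turned: Angpt2 had 164, 339 and 207 CPM in iECKO (2182, 363 and 117 cells), against 379, 448 and 273 in control (22, 21 and 12 cells). The groups overlapped there, as iECKO 2 lay above control 3, and each iECKO library lay below the control of its number. Apln itself had 102, 230 and 313 in iECKO, against 1208, 705 and 886 in control in the same subcluster. Capillary cells outside it had 19.9, 51.9 and 26.4 Angpt2 CPM in iECKO, against 12.1, 17.9 and 11.1 in control, and there every iECKO library was above every control. With the subcluster left out, an alternative chosen after seeing the data, the capillary difference was 1.2 (adjusted p = 1.00, edgeR) and 1.18 with the replicate block (adjusted p = 5.72e-07), against 2.66 and 2.53 with it. Over all endothelial cells it was 1.18 (adjusted p = 1.00) and 1.24 with the block (adjusted p = 0.00367).

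Other subclusters spanned a wide range of Angpt2. The Plvap-led one, named by a gene of fenestrated endothelium, had 47.3, 17.2 and 83.8 CPM in iECKO, against 40.1, 71.9 and 36.0 in control, so the groups overlapped. The Ndnf-led one had 2.10, 0 and 2.19 in iECKO, against 1.45, 0 and 0.965 in control, where the 0 of iECKO 2 (21 cells) allows up to 15.8 CPM and that of control 2 (14 cells) up to 19.8. The Gm26917-led capillary subcluster, present in all libraries with 432 to 1419 cells, had 26.1, 73.2 and 28.0 in iECKO, against 15.8, 17.7 and 11.8 in control, with no overlap. The Cdkn2b-led one had 15.4, 53.7 and 26.2 in iECKO, against 9.95, 37.4 and 11.0 in control, and overlapped.

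**Figure D2:**
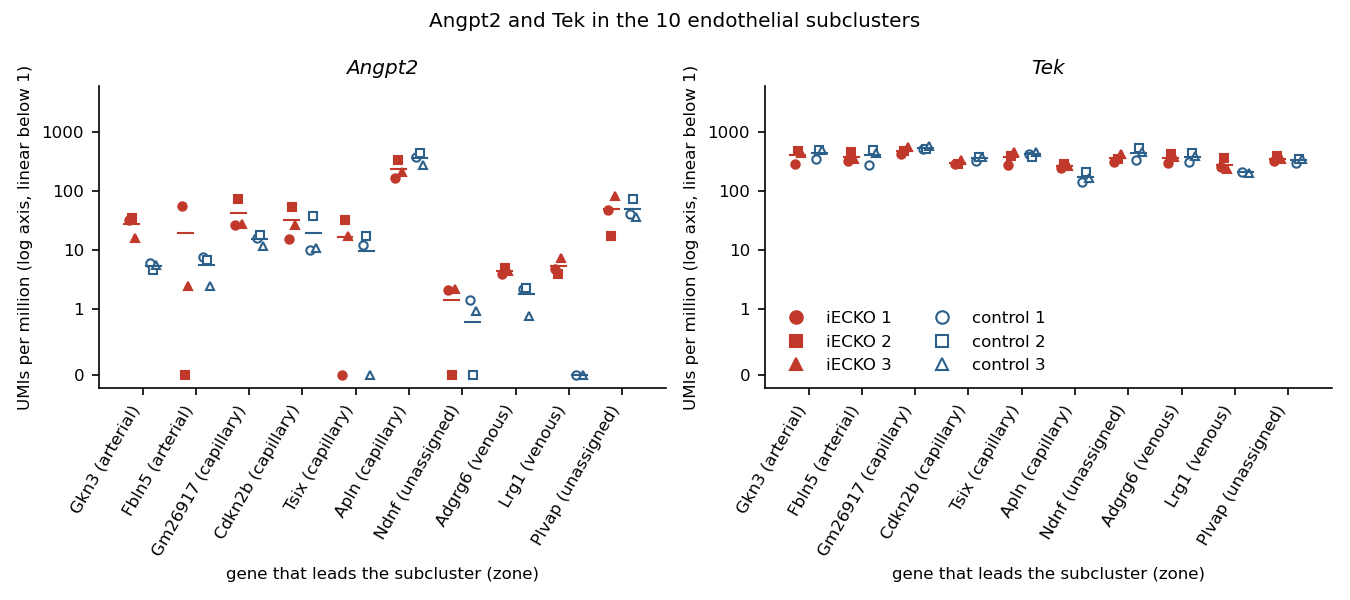
Level of Angpt2 (left) and Tek (right) in CPM (log axis that is linear below 1) in the 10 endothelial subclusters, named by their leading gene and zone, with iECKO libraries filled and left of the open control libraries and lines at the group means. Angpt2 is highest in the Apln-led subcluster of both groups, at 164 to 339 in iECKO and 273 to 448 in control, where Tek is 244 to 291 in iECKO and 139 to 209 in control; the Lrg1-led subcluster holds at most 1 cell in a control library.

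Mural cells also held Angpt2. Smooth muscle cells had 71.9, 95.9 and 52.1 CPM in iECKO (116, 19 and 41 UMIs), against 28.7, 53.9 and 62.9 in control (21, 26 and 53 UMIs). The groups overlapped, and the difference of 0.50 ± 0.28 was not called (edgeR, adjusted p = 0.998, 0.0145% of genes called; 0 of the 3 genes tested had an unadjusted p under 0.05, and DESeq2 called none of them). Pericytes had 47.2, 15.4 and 18.0 in iECKO (9, 3 and 3 UMIs), against 22.2, 33.0 and 31.7 in control (2, 6 and 5 UMIs). In control libraries pericytes were lower than smooth muscle cells by -1.11 ± 0.43 (edgeR, adjusted p = 0.0278, 39.3% of genes called), a call that DESeq2 did not make (adjusted p = 0.309, 21.6% of genes called) and that was lost without control 2 or control 3. Microglia had 0 Angpt2 UMIs in all iECKO libraries, against 0, 1 and 0 UMIs in control, where 0 UMIs allow up to 5.62 to 24.0 CPM in iECKO and 5.52 to 5.64 in control.

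The share of cells with Angpt2 was compared after thinning every cell to 2000 UMIs, which left out 130 to 584 shallower cells in iECKO and 214 to 760 in control endothelium. At that depth 10.7%, 9.43% and 3.81% of endothelial cells held an Angpt2 UMI in iECKO, against 1.89%, 2.78% and 1.45% in control. All iECKO libraries lay above all controls, and the means were 7.99% ± 3.68 in iECKO and 2.04% ± 0.682 in control (SD, n = 3 each; two-sided exact permutation test p = 0.1, the smallest that 3 against 3 allows). Without thinning the means were 14.6% ± 4.26 in iECKO and 4.25% ± 0.733 in control. Thinned microglia, which should lack the gene, held an Angpt2 UMI in 0 of 25 to 133 cells per iECKO library and 0 of 72 to 138 per control library, which allows shares of up to 12% in iECKO and 4.17% in control. At the same depth 14.1%, 12.6% and 4.56% of capillary cells held an Angpt2 UMI in iECKO, against 2.50%, 2.83% and 2.07% in control.

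Apln, a gene of endothelial tip cells, gave a gate on capillary cells that used no gene of the system. Among capillary cells with at least 2000 UMIs, those with at least 2 Apln UMIs numbered 193, 68 and 42 in iECKO, against 11, 17 and 8 in control. In iECKO, Angpt2 had 359.7, 770.3 and 313 CPM in Apln-positive cells, against 93.0, 82.0 and 25.6 in cells with no Apln UMI. Every Apln-positive value lay above every other, and the difference of 2.90 ± 0.50 missed the threshold in edgeR (library as a block, adjusted p = 0.0837) and passed it in DESeq2 (2.98, adjusted p = 3.5e-08, 10.6% of genes called). Over its alternatives this value ranged from 2.62 to 3.43, and edgeR called it without library iECKO 1 or iECKO 3 and over all endothelial cells in place of capillary ones. Control Apln-positive cells had 556, 429 and 319.7 Angpt2 CPM, against 11.7, 17.9 and 10.1 in control cells with no Apln UMI. At 2000 UMIs per cell, 42.0%, 50.0% and 38.1% of Apln-positive cells held an Angpt2 UMI in iECKO, against 45.5%, 52.9% and 25% in control. Median depth differed across the gate, at 6950 to 10628 UMIs in Apln-positive iECKO cells, against 3992 to 5052 in Apln-undetected ones.

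Tek and Ptprb went the other way across the gate. Tek had 187, 201 and 219 CPM in Apln-positive iECKO cells, against 276, 394 and 382 in Apln-undetected ones, and fell by 0.72 ± 0.11 on the log2 scale (edgeR, adjusted p = 3.96e-06). Ptprb had 530.5, 1032 and 1173 in Apln-positive cells, against 1000.2, 1769 and 1538 in Apln-undetected ones, and fell by 0.65 ± 0.10 (adjusted p = 4.74e-06). These were lower within each of the 3 libraries, and both calls stayed in every alternative run. They were 2 of the 4 genes tested, in a comparison where 20.2% of 11001 genes were called and 8.68% were called lower. Tie1 had 213, 239 and 246 in Apln-positive cells, against 229, 214 and 277 in Apln-undetected ones, and did not pass (0.0059 ± 0.11, adjusted p = 0.982). Angpt1 had 0 UMIs in the Apln-positive cells of every library, which allows up to 1.59, 4.07 and 5.86 CPM in iECKO.

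**Figure D3:**
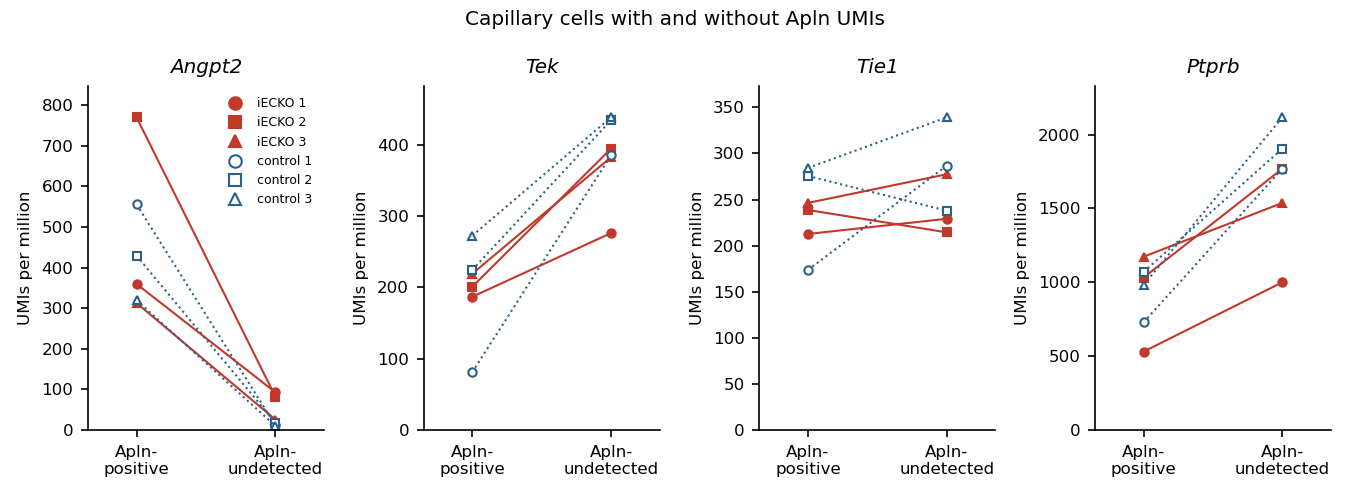
Levels of 4 genes in CPM (linear axes from 0) in capillary cells with at least 2 Apln UMIs and with none, each line joining both values of a library (iECKO filled with solid lines, control open with dotted lines). Angpt2 is higher and Tek and Ptprb lower in the Apln-positive cells of all 6 libraries, and Tie1 lines run both ways; the control gates hold 8 to 17 cells.

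Angpt2 also separated the groups among cells with no Apln UMI. They had 93.0, 82.0 and 25.6 CPM in iECKO, against 11.7, 17.9 and 10.1 in control, with no overlap. The difference of 2.35 ± 0.62 was not called in edgeR (adjusted p = 0.363, 0.0594% of genes called), nor with the replicate block (2.24 ± 0.37, adjusted p = 0.0877, 2.84% of genes called). Of the 4 genes tested, Angpt2 alone had an unadjusted p under 0.05 without the block, and the share of all genes there is not given. DESeq2 called Angpt2 (adjusted p = 0.0354, 1.65% of genes called). It passed without library iECKO 3 (2.78, adjusted p = 0.0072), and with the block it passed without library 1 or 3 of either group. After thinning, 11.3%, 9.31% and 4.30% of these cells held an Angpt2 UMI in iECKO, against 1.93%, 2.34% and 1.52% in control. The gate used Apln UMIs alone, so cells of the Apln-led subcluster with no Apln UMI are among these cells. That subcluster held 2182, 363 and 117 cells in iECKO, against 22, 21 and 12 in control. Its part in the difference was not tested, and levels of capillary cells outside it are given above.

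The deletion was mosaic, so iECKO capillary cells were also split by Cldn5 itself. Cells with no Cldn5 UMI (474, 167 and 260 cells) had 206, 122 and 34.9 Angpt2 CPM, against 121, 162 and 43.2 in cells with at least 2 Cldn5 UMIs (2111, 937 and 1465 cells) of the same iECKO libraries. Library iECKO 1 was higher without Cldn5, and iECKO 2 and 3 were lower. The difference of 0.24 ± 0.22 did not pass (edgeR, library as a block, adjusted p = 0.706), and Tek (0.021 ± 0.075), Tie1 (0.036 ± 0.078) and Ptprb (-0.025 ± 0.071) did not pass either. None of the 4 genes tested had an unadjusted p under 0.05, DESeq2 called none (1.8% of genes called), and edgeR called 5.45% of 11097 genes. Median depth was 3255.5 to 4333 UMIs in Cldn5-undetected cells, against 4582 to 5467 in Cldn5-detected ones, and an absent UMI does not show an absent allele. Over all endothelial cells in place of capillary ones, edgeR called Angpt2 (0.45, adjusted p = 0.0229) and Tie1 (0.24, adjusted p = 0.00421), beside 12.6% of 11916 genes. In capillary cells Angpt2 was called without iECKO 2 (0.49, adjusted p = 0.00181) and was -0.35 without iECKO 1.

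Tek, the Tie2 receptor gene, was found throughout the endothelium with little difference between zones. Across endothelial cells it had 277, 393 and 393 CPM in iECKO, against 359, 434 and 447 in control. Library iECKO 1 was the lowest, and the groups overlapped through control 1. The difference was -0.23 ± 0.18 (edgeR, adjusted p = 0.92; adjusted p = 0.207 with the replicate block). Capillary cells had 267, 371 and 373 in iECKO, against 388, 430.3 and 438 in control, with no overlap. The share of all genes that separate in this way is not given. The capillary difference of -0.31 ± 0.17 was not called (edgeR, adjusted p = 0.552, and 0.106 with the block). Arterial cells had 293, 477 and 433 in iECKO, against 349, 487 and 498 in control, and venous cells 269, 416 and 366 in iECKO, against 306, 432 and 397 in control. Those groups overlapped, although each iECKO library lay below the control of its number. In control libraries neither arterial (0.071 ± 0.091, adjusted p = 0.608) nor venous cells (-0.13 ± 0.091, adjusted p = 0.274) differed from capillary cells past the threshold.

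Inside the Apln-led subcluster Tek had 244, 291 and 261 CPM in iECKO, against 139, 209 and 164 in control (18, 35 and 15 UMIs). Every iECKO library lay above every control there, the opposite order to that of the zones, and the share of all genes that do so is not given. Outside the endothelium Tek was at the level of a few UMIs per class. Pericytes had 10.5, 15.4 and 6.0 in iECKO (2, 3 and 1 UMIs), against 0, 11.0 and 0 in control (0, 2 and 0 UMIs, where 0 allows up to 33.4 and 19.0 CPM). Microglia, which should lack it, had 13.1, 7.99 and 12.1 in iECKO, against 7.52, 8.09 and 5.52 in control, and the Poisson intervals of the pericyte values, at 1 to 3 UMIs, take in these microglial levels. After thinning to 2000 UMIs, 40.8%, 50.9% and 52.9% of endothelial cells held a Tek UMI in iECKO, against 49.7%, 53.4% and 56.0% in control (difference -4.83 percentage points, two-sided exact permutation test p = 0.4). The share in thinned microglia was 0% to 3.01% in iECKO and 0.98% to 2.17% in control.

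Tie1, the orphan partner receptor, had 233, 234 and 280.0 CPM in endothelial cells of iECKO, against 280.0, 265 and 331 in control. The groups overlapped and each iECKO library lay below the control of its number. The difference was -0.23 ± 0.13 (edgeR, adjusted p = 0.83; 0.189 with the replicate block). The iECKO zones had 227, 217 and 275 in capillary, 212, 252 and 259 in arterial and 224, 254 and 302 in venous cells. In control, capillary cells had 287, 239.9 and 341, arterial cells 227, 257 and 316, and venous cells 322, 288 and 310.6, with no call against capillary cells (-0.11 ± 0.10 for arterial, 0.13 ± 0.10 for venous). The Plvap-led subcluster had the highest values of any subcluster of at least 20 cells in each library, at 484, 459 and 503 in iECKO, against 443, 458 and 530 in control. These overlapped between genotypes. Pericytes had 26.2, 20.5 and 12 in iECKO (5, 4 and 2 UMIs), against 11.1, 11.0 and 12.7 in control (1, 2 and 2 UMIs), where pericyte sums also held UMIs of 10 to 12 of the 12 endothelial markers in iECKO (691 to 1247 CPM) and 8 to 12 in control (712 to 1040 CPM); their part in these values was not tested.

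Ptprb, the Tie2 phosphatase, had 1158, 1939 and 1747 CPM in endothelial cells of iECKO, against 1675, 2053 and 2357 in control. Library iECKO 1 was again the lowest, and the groups overlapped. The difference was -0.32 ± 0.23 (edgeR, adjusted p = 0.895; -0.35 ± 0.10 and adjusted p = 0.135 with the replicate block). Capillary cells had 943, 1671 and 1530.0 in iECKO, against 1780.1, 1880.3 and 2128 in control. These groups did not overlap, but the share of all genes that separate in this way is not given. The capillary difference was -0.48 ± 0.22 (edgeR, adjusted p = 0.473), and -0.50 ± 0.13 with the block (adjusted p = 0.0607), and it also missed the threshold. Arterial cells had 1062, 2066 and 1750.3 in iECKO, against 1424, 2414 and 2511 in control, and venous cells 1845, 2588 and 2192 in iECKO, against 1838, 2341 and 2559 in control. Both pairs of groups overlapped, and venous values were not lower in each pair. The venous against capillary term of the genotype difference was 0.47 ± 0.16 (edgeR, adjusted p = 0.215), and it passed only with no filter on low counts among the alternatives run. Outside the endothelium Ptprb had 21.0, 46.2 and 24.0 in iECKO pericytes, against 11.1, 60.5 and 25.3 in control ones, and microglia, which should lack it, had 29.96, 24.0 and 14.5 in iECKO, against 26.3, 53.9 and 12.9 in control. Within the Fbln5-led arterial subcluster Ptprb had 1842, 3164 and 2683 in iECKO, against 2300, 3791 and 4153 in control.

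**Figure D4:**
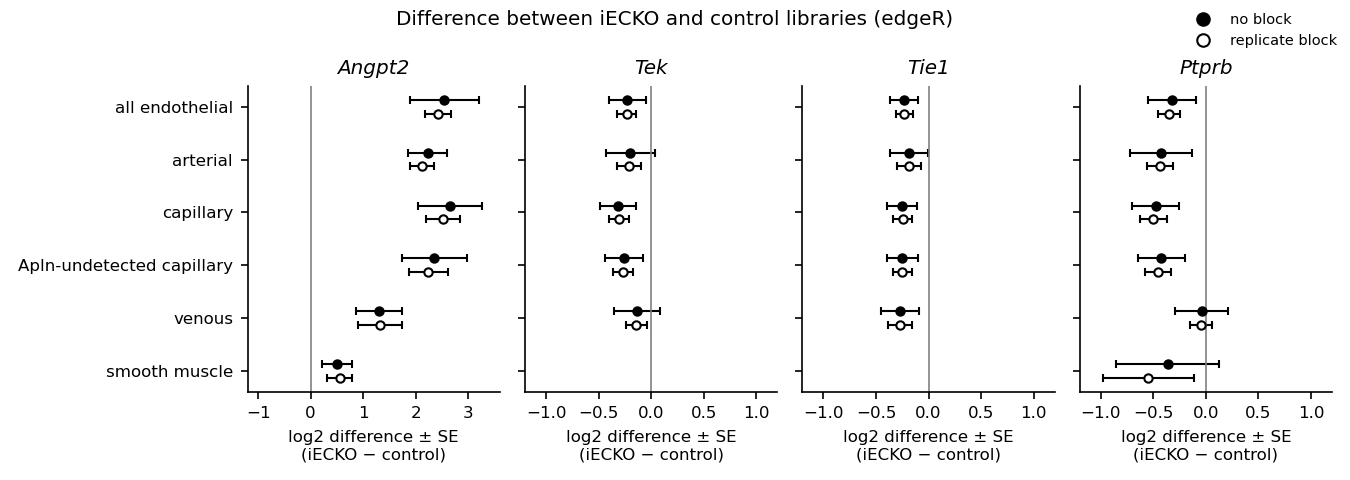
Log2 difference between iECKO and control libraries (edgeR, bars are ± 1 SE) in 6 cell classes for 4 genes, without (filled) and with (open) the replicate number as a block; Tek and Tie1 did not pass the low-count filter in smooth muscle cells. Angpt2 lies between 0.50 and 2.66 without the block, and Tek, Tie1 and Ptprb lie between -0.55 and -0.042 over both fits.

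Genes with the most similar pattern were found over 39 sums of a library and a class, by Pearson correlation of log2(CPM + 1) among 6955 genes. These sums share libraries, depth and cell class, so the values describe likeness only. Angpt1 was most like Hey2 (0.97), a Notch target of arterial and mural cells, followed by Gucy1a1, a soluble guanylate cyclase subunit (0.96). Angpt2 had lower values, with Ppp1cb, a phosphatase subunit, at 0.86 and Fgfr1, a growth factor receptor, at 0.86, and Spry4, an inhibitor of receptor tyrosine kinase signalling, at 0.85. Tek was most like Prom1 (0.98) and had VE-cadherin (Cdh5) at 0.96. Tie1 was most like the lipid transfer gene Pltp (0.97) and the VEGF receptor gene Flt1 (0.96), and Ptprb was most like Cldn5 (0.98), Itm2a (0.98) and Flt1 (0.98).

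Genes that act with the receptors were read in 4 lists. In all endothelial cells edgeR called none of the 17 adaptors and effectors, 10 binding partners, 11 transcription factors or 21 sprouting genes tested, with median log2 differences of -0.014, 0.14, -0.058 and 1.07, beside 0.00335 over all genes. With the replicate block 4 of 21 sprouting genes rose, Plxnd1 (a semaphorin receptor, 0.70 ± 0.10), Cd34 (0.50 ± 0.085), Flt4 (a VEGF receptor, 0.49 ± 0.097) and Kcne3, beside 1.11% of all genes called higher, while the other lists had 0 calls. In capillary cells the block gave 11 sprouting genes higher and 1 lower of 21, against a background of 3.75% called higher and 1.19% lower. Fscn1, an actin-bundling protein of filopodia, was called in both fits (3.85 ± 0.39, edgeR adjusted p = 0.0222 without the block), with 72.0, 53.3 and 25.1 normalised CPM in iECKO, against 3.71, 3.25 and 3.48 in control. Esm1 was the 1 lower gene (-2.11 ± 0.49, adjusted p = 0.0469 with the block). Among the partners of the system, the integrin genes Itgb3 (2.37 ± 0.45) and Itga5 (0.74 ± 0.15) rose in capillary cells with the block, and Grb14, an adaptor that binds Tie2, fell by 0.64 ± 0.13.

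The same lists were read across the Apln gate in iECKO, where 11.6% of all genes were called higher and 8.68% lower. The 20 sprouting genes tested include Apln, the gate itself, which the shares of all genes leave out. Of these 20, 14 were higher and 0 lower. The basement membrane gene Lamb1 (4.77 ± 0.22), Cxcr4 (1.91 ± 0.47) and Col4a1 (1.32 ± 0.11) were among them. Apln is higher by the definition of the gate, and the list was drawn up with earlier results known. Kcne3 and Fscn1, also listed, mark the same subcluster as Apln. The count was thus partly fixed in advance, and its excess over the share of all genes was not tested. Of 9 binding partners, 6 were higher and 1 lower: the integrin genes Itgb3 (2.57 ± 0.29), Itga5 (1.17 ± 0.16), Itgb1 (0.94 ± 0.10) and Itgav (0.73 ± 0.17) rose, as did Kdr (0.61 ± 0.098) and Cdh5, and Plcg1 fell by 0.63 ± 0.14. Angiopoietin-2 is known to bind such integrins. Of 17 adaptors, 2 were lower, a share near that of all genes, Grb7 (-1.3 ± 0.37) and Grb14 (-0.94 ± 0.14). Of 11 transcription factors, 2 were higher and 5 lower, with Klf2 (-0.92 ± 0.099) and Klf4 (-0.88 ± 0.11), which laminar flow induces, and Gata2 (-0.58 ± 0.13) lower, and Hif1a (0.40 ± 0.12) and Ets1 (0.37 ± 0.099) higher. The lists' genes, unlike the 5, took part in the clustering, so their differences between zones are not reported here.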

How the data were processed

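The authors deposited 1 matrix of UMI counts per library, from 10x v3.1 libraries per the labels' protocols; per the file headers the software was Cell Ranger 6.1.1, and mm10 and Seurat are named in the submitters' processing notes. These deposited counts are raw. The 5 genes and all lists were chosen with earlier results of these data known. Barcodes with at least 1000 UMIs, 500 genes and at most 15% mitochondrial UMIs were kept. The cells with the highest doublet scores (0.8% per 1000 cells, 39 to 364 per library) were removed, ranked by Scrublet, whose own threshold marked 0 to 5 per library. Cells were clustered with scanpy 1.11.5 and leidenalg 0.10.2, leaving out Cldn5 and the 5 genes, and named from marker lists (at least 3 markers in 25% of cells). Barcodes of every named class that carried another type's markers were removed, with erythrocyte markers and closely related types not counted. Endothelial subclusters took a zone by marker lists; that the Apln-led one counts as capillary was decided after seeing the data, and the Ndnf- and Plvap-led ones stayed unassigned. Counts were summed per library and class (at least 20 cells) and tested with edgeR 4.0.16 (TMM, filterByExpr, quasi-likelihood F test) in R 4.3.3, adjusting p-values by Benjamini-Hochberg over all genes tested (threshold 0.05). Comparisons within a group used the library as a block. DESeq2 1.42.0, other filters and scalings, equal cell numbers and left-out libraries were alternatives. The fits were also run on counts simulated with 1 fixed spread and no pairing of libraries, a simpler setting than these data.

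Same-numbered libraries deviated together from their group means (Pearson r = 0.42, 0.51 and 0.49 over 13268 genes), so the numbers were used as pairs although the labels do not say why. Every other pair was negative, which centring on the group means favours. Shares were thinned to 2000 UMIs per cell and tested with exact permutations. Intervals and limits from 0 counts (3 counts) cover counting error only. Where groups are said not to overlap, the share of all genes that separate in that way is not given. Listed genes named are those past the threshold in either fit, at most 6 per list and comparison by size, and for likeness the 4 highest among genes with a mean of at least 20 CPM; of these, the text gives a selection. Levels are not compared between genes, since UMI counts of 3′ ends do not measure transcripts per length. Gene positions come from GENCODE vM21 on GRCm38, in which 32235 of 32286 feature IDs were found.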

Additional observations from a re-analysis of the deposited data

Results flagged for a closer look

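Angpt2 and Tek showed opposite orders of the groups inside and outside the Apln-led subcluster, taking libraries of the same number as pairs. Without the replicate block edgeR called neither gene in venous cells, arterial cells (main fit) or capillary cells outside the subcluster. With the block it called Angpt2 in the latter 2 classes. Levels inside the subcluster were not tested, but shares of cells at 2000 UMIs were. Angpt2 had 21.8% ± 3.59 in iECKO and 32.7% ± 14.5 in control (SD, two-sided exact permutation test p = 0.4). Tek had 38.8% ± 3.15 in iECKO and 34.8% ± 10.5 in control (SD, two-sided exact permutation test p = 0.8). As log2 ratios of mean CPM, iECKO over control, Angpt2 was 2.25 in arterial cells, 1.255 in capillary cells outside the subcluster and 1.39 in venous cells, higher in all 3 pairs, and -0.63 in the Apln-led subcluster, lower in all 3 pairs. Tek was -0.15 in arterial cells, -0.14 in capillary cells outside the subcluster and -0.11 in venous cells, lower in all 3 pairs, and 0.64 in the Apln-led subcluster, higher in all 3 pairs. The control values of the Apln-led subcluster rest on 12 to 22 cells per library.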

How the results depend on the processing

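Of 742 alternative values for the 5 genes, 668 kept direction and side of the threshold, 40 gained a call, 3 lost one and 31 turned sign. All 115 values of the Angpt2 genotype difference were positive, from 0.076 to 3.08. The number of called genes of the system was 1 in place of 0 in all endothelial, arterial and capillary cells with the replicate block and with DESeq2; in all endothelial and capillary cells with the block and no Apln-led subcluster; in arterial cells and in the zone by genotype term with no filter on low counts; and in Apln-undetected cells with DESeq2. It was 2 in place of 0 for the Cldn5 gate over all endothelial cells, where 12.6% of all genes were called, and 3 in place of 2 for the Apln gate with DESeq2 and over all endothelial cells. For pericytes against smooth muscle cells it was 0 with DESeq2 and 2 with no filter, in place of 1. Leaving out 1 library gave 0 to 1 in each of these comparisons, 1 throughout in arterial cells with the block, and 2 to 3 in the Apln gate, which had 2. The block changed no other call of the 5 genes.

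The sign turned for values that were not called. With equal cell numbers Angpt1 was 0.27 in endothelial and 0.11 in smooth muscle cells. Tie1 across the Apln gate was -0.033 with no filter, -0.061 at 1 UMI or more, -0.00032 at 4000 UMIs per cell and -0.017 over all endothelial cells. With no filter, Tek was -0.033 and Tie1 -0.018 across the Cldn5 gate; that setting moved the median of all genes by -0.20 for the Apln gate, -0.11 for the Cldn5 gate and -0.16 for the mural classes. With 1 library left out, the genotype difference ranged from -0.20 to 0.031 for Ptprb in venous, -1.43 to 0.14 for Ptprb in smooth muscle and -0.22 to 0.15 for Angpt1 in smooth muscle cells. With the replicate block as well, Ptprb in venous cells reached 0.035, and Angpt1 in smooth muscle cells 0.0029, 0.15 and 0.15. Across the Apln gate Tie1 ranged from -0.088 to 0.061. Across the Cldn5 gate Angpt2 ranged from -0.35 to 0.49, Tek from -0.051 to 0.066 and Tie1 from -0.0089 to 0.10. Ptprb in arterial against capillary cells ranged from -0.031 to 0.28. The zone by genotype term ranged from -0.023 to 0.16 for Tie1 and -0.11 to 0.20 for Ptprb in arterial cells, and from -0.11 to 0.064 for Tie1 in venous cells. The cause was not tested.

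The stricter cell filter could not be fitted for pericytes, smooth muscle cells or their comparison. An arm left with 1 library is assumed to vary like the others. Depth limits Angpt1 in capillary and venous cells and all 5 genes in pericytes.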
